A study of Mus musculus with 6 samples.

Results

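The tumour necrosis factor (TNF) superfamily of ligands and receptors was described in RNA-seq of mouse bone marrow-derived mesenchymal stromal cells (MSCs). A gene was a member when its symbol began with Tnfsf or Tnfrsf and a digit, or was one of Tnf, Lta, Ltb, Fas, Fasl, Ltbr, Cd40 and Ngfr. The rule found 39 members among 23420 genes in the count table, 15 ligands and 24 receptors, and the 18 with 10 or more reads in at least 3 of 6 libraries were reported with their values. The MSCs were grown from the femurs of female C57BL/6 mice aged 6 to 8 weeks and were transduced with an AP2 retrovirus, an expression vector that carries eGFP as its marker, so that both groups were transduced cells. The 3 libraries labelled Ctl MSC, the controls, came from cells with the empty AP2 vector, and the 3 labelled MSC-TPr from cells whose vector also encoded the thymoproteasome (TPr) subunits β1i, β2i and β5t (genes Psmb9, Psmb10 and Psmb11). The labels give both groups the same medium. The comparison asked what expression of the TPr subunits changed in the cells.

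TNF superfamily ligands are trimeric membrane proteins, many of which are also shed in soluble form, and they bind receptors with cysteine-rich repeats in the extracellular part. The receptors are sorted by what lies inside the cell. Death domain receptors such as TNFR1 and Fas recruit FADD or TRADD and can lead to caspase activation, whereas the other signalling receptors bind TRAF adaptors and lead mainly to NF-κB. Decoy receptors bind ligand without signalling. In bone marrow, stromal cells are a known source of osteoprotegerin (Tnfrsf11b), the decoy that keeps RANKL (Tnfsf11) from its receptor on osteoclast precursors, and MSCs are known to respond to TNF.

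The libraries held 16158756 to 22158887 reads on genes, and 3 reads, the least taken as detectable, were 0.139 to 0.181 CPM (counts scaled to library size). Library 1 of each label stood apart from the others of that label. Averaged over 20 cell division genes, log2(CPM + 1) was 3.37 and 3.35 in Ctl MSC 2 and 3 but 6.57 in Ctl MSC 1, and it was 6.45 and 6.54 in MSC-TPr 2 and 3 but 3.40 in MSC-TPr 1. The study checked transduction by eGFP and by immunoblot of the subunits, and it named Psmb10 among genes with enhanced expression. In the counts used here the transduced genes did not separate the labels, which differs from the enhanced Psmb10 that the study reported. Other genes such as Birc3 did separate them (below). Psmb10 ranged from 8.38 to 27.8 CPM over the controls and from 8.96 to 17.3 CPM over the MSC-TPr libraries, Psmb9 at 0.801 to 3.38 and 0.553 to 1.24 CPM, and Psmb11 had 1 to 6 reads in any library. Library names below are therefore labels, and each comparison was made over all 6 libraries, over the 4 libraries numbered 2 and 3, and over all 6 with the cell division level as a covariate. Within those 4 libraries the label and the cell division level cannot be told apart. Of 14 mesenchymal markers, 13 had 10 or more reads in at least 3 libraries, among them Eng at 142 to 204 CPM and Cd44 at 142 to 535 CPM. Thy1 had 1 read in 1 library and none elsewhere. Nt5e (CD73) was lower in MSC-TPr, at 2.66 to 5.24 CPM beside 11.4 to 20.2 in the controls, as was Alcam, at 1.55 to 2.18 beside 2.54 to 13.5 CPM, without overlap but without passing the test below, and their part in the results was not tested. The leukocyte marker Ptprc reached 0.0927 CPM in 1 library and was at 0 in the others, the endothelial marker Pecam1 was at 0.221 CPM or less, and 12 myeloid and leukocyte markers together summed to 11.2 to 17.5 CPM. Vwf, another endothelial marker, was at 21.4 CPM in MSC-TPr 1 and at 0.483 to 3.36 CPM elsewhere. The 12 lymphocyte markers summed to 0.845 to 4.80 CPM in the controls and 2.64 to 9.35 CPM in MSC-TPr. The 8 osteoblast and adipocyte markers summed to more, 197 to 241 CPM in the controls and 228 to 291 CPM in MSC-TPr. Of these 8, 2 were tested, and 1 was higher in MSC-TPr without overlap. Which cells gave these reads was not tested. In bulk RNA, fewer cells that express a gene and less RNA per cell cannot be told apart.

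The MSCs carried 14 receptors and 4 ligands of the superfamily. The receptors were Tnfrsf1a, Tnfrsf10b, Tnfrsf21, Fas and Tnfrsf25 with a death domain, Tnfrsf12a, Ltbr, Tnfrsf1b, Tnfrsf9 and Cd40 of the TRAF-binding kind, the decoys Tnfrsf11b, Tnfrsf23 and Tnfrsf22, and the orphan receptor Tnfrsf26. The ligands were Tnfsf12, Tnfsf9, Tnfsf18 and Tnfsf10. Another 16 members had at least 1 read without reaching the limit, and 5 had no read in any library. These 5 were Fasl, Tnfsf4 (OX40L), Tnfsf14 (LIGHT), Tnfrsf13b (TACI) and Tnfrsf17 (BCMA). Tnf itself had 3 reads over the 6 libraries, and the lymphotoxin genes Lta and Ltb and the receptor genes Ngfr and Tnfrsf8 (CD30) had 1 read each. RANKL (Tnfsf11) had 17 reads in Ctl MSC 1 and 0 to 4 in the others, and RANK (Tnfrsf11a) had 0 to 10. The B cell factors Tnfsf13 (APRIL) and Tnfsf13b (BAFF) had 2 to 8 and 1 to 4 reads, Tnfsf15 had 3 to 8, Tnfsf8 had 0 to 2, and the receptors Tnfrsf18 (GITR), Tnfrsf14 (HVEM) and Tnfrsf13c (BAFF receptor) had at most 10, 6 and 3. The members just outside the limit were Tnfrsf4 (OX40), with 8, 14 and 10 reads in the Ctl MSC libraries and 4, 2 and 4 in the MSC-TPr libraries, and Tnfrsf19, with 1, 15 and 11 and with 2, 6 and 7 reads. Just inside it were Cd40, Tnfrsf25 and Tnfsf10.

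Levels of different genes were compared as CPM per kb of exon. Tnfrsf12a, the receptor Fn14 for the ligand TWEAK, was the highest member with a mean of 127 CPM per kb over the 6 libraries, and its lowest library (70.5) lay above the highest library of any other member. Ltbr, the lymphotoxin β receptor, followed at 53.8 and Tnfrsf1a (TNFR1) at 49.4, with ranges that overlapped. Tnfrsf11b had a mean of 21.6 CPM per kb but ranged from 3.75 to 63.8, so that its place in the order differed between libraries. Tnfrsf1b (TNFR2) at 16.1, Tnfrsf26 at 15.9, Tnfrsf10b at 8.70 and Tnfrsf23 at 8.48 CPM per kb followed, with ranges that overlapped between neighbours. The gap between Tnfrsf23 and the highest ligand, Tnfsf12 (TWEAK) at 3.76, was the only other gap between neighbours that held in every library. Below it came Tnfrsf22 at 2.30, Tnfrsf21 at 1.62, Tnfsf9 at 0.793, Tnfrsf9 at 0.722, Tnfsf18 at 0.650, Fas at 0.642, Tnfrsf25 at 0.256, Cd40 at 0.139 and Tnfsf10 at 0.110 CPM per kb, and each of these overlapped with its neighbours.

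**Figure D1:**
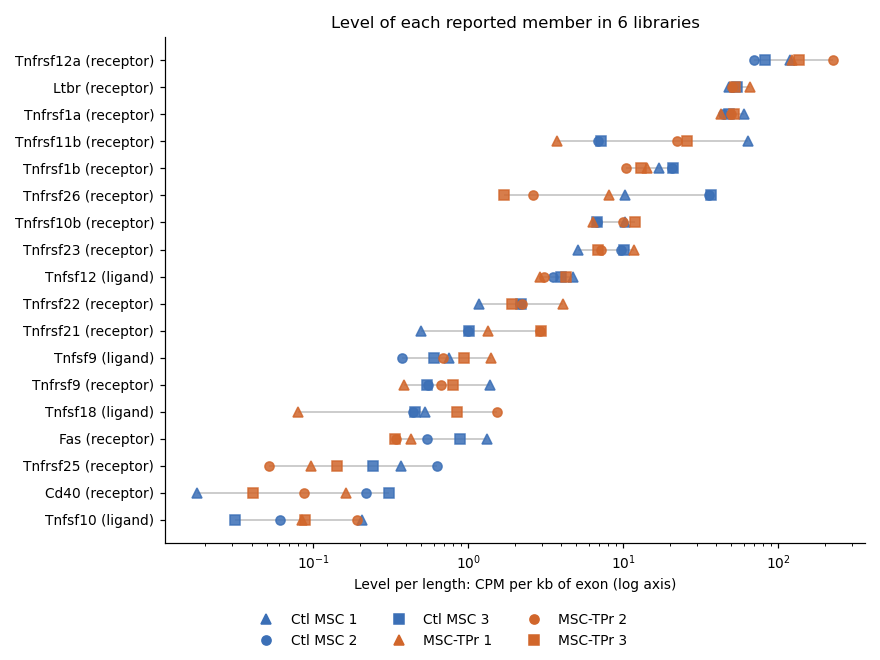
Level of the 18 reported members in each of the 6 libraries, as CPM per kb of exon on a log axis, ordered by the mean. Blue marks the Ctl MSC and orange the MSC-TPr libraries, the marker shape gives the library number, and grey lines join the lowest and the highest library. Tnfrsf12a lies above every other member in all 6 libraries, and Tnfrsf11b and Tnfrsf26 have the widest ranges among the 8 highest members.

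Receptors made up nearly all of the superfamily signal. The 24 receptors summed to 252 to 387 CPM per kb and the 15 ligands to 4.90 to 6.92, so that ligands held 1.51% to 2.06% of the sum. The death domain receptors summed to 60.9 ± 10.5 CPM per kb in Ctl MSC and 60.3 ± 8.32 in MSC-TPr (SD, n = 3 libraries each). The sum of the 14 TRAF-binding receptors was 187, 144 and 159.6 in the Ctl MSC libraries and 205, 289.8 and 204 in the MSC-TPr libraries, without overlap. Most of that came from Tnfrsf12a, since the sum of the other 13 was 67.6 to 77.5 in Ctl MSC and 61.9 to 81.2 in MSC-TPr. The 3 decoys summed to 70.1 CPM per kb in Ctl MSC 1, to 18.8 and 19.6 in Ctl MSC 2 and 3, to 19.6 in MSC-TPr 1 and to 31.6 and 34.6 in MSC-TPr 2 and 3.

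The receptors of a cluster on chromosome 7 need their sequences read side by side, because reads can be shared between near copies. On the minus strand of GRCm38 (mm10) they lie as Tnfrsf26 (chr7:143607659-143628722), Tnfrsf22 (chr7:143634806-143649661) and Tnfrsf23 (chr7:143665809-143685872). Tnfrsf22 and Tnfrsf23 encode decoy receptors for TRAIL in the mouse. Over 531 aligned coding bases they were 90.58% identical, with an identical run of 102 bases, whereas Tnfrsf26 matched Tnfrsf22 at 62.5% and Tnfrsf23 at 61.08% with no identical run above 10 bases. Of all 50-base windows in their transcripts, 27.4% in Tnfrsf22 and 18.0% in Tnfrsf23 occurred in another gene, and none in Tnfrsf26. The stretch below, from GENCODE transcripts, is shown because Tnfrsf22 differs from Tnfrsf23 at few of its bases and Tnfrsf26 at many. A read that covers those few bases can still tell Tnfrsf22 from Tnfrsf23. It spans coding bases 330 to 419 of Tnfrsf23 (between chr7:143670044 and 143670909), 360 to 449 of Tnfrsf22 (between chr7:143639964 and 143640829) and 297 to 386 of Tnfrsf26 (between chr7:143614914 and 143617918). Capitals mark bases that differ from Tnfrsf23.
Tnfrsf23: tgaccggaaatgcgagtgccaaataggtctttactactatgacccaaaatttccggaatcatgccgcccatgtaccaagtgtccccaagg
Tnfrsf22: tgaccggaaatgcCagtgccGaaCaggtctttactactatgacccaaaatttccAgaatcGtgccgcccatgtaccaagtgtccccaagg
Tnfrsf26: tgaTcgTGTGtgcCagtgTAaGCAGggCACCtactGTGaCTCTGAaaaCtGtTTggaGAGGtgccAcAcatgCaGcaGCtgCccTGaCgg
In this window 5 of 90 bases differed in Tnfrsf22 and 43 of 90 in Tnfrsf26. Tnfrsf23 shared windows with Tnfrsf22 only, whereas Tnfrsf22 also shared some with Gm47486, AC136710.2 and Gm47357. Reads that lie within windows common to Tnfrsf22 and Tnfrsf23 can fit both, so part of their counts is uncertain. Whether such reads were split or dropped in counting was not given in the sources used here. The counts of Tnfrsf26 are not open to that uncertainty. Exons of Tnfrsf23 and Tnfrsf26 also overlap exons of E230032D23Rik on the opposite strand. The library kit kept strand, but the strand setting of the counting was not given in the sources used here.

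Over all 6 libraries no member passed the test between MSC-TPr and Ctl MSC (edgeR's quasi-likelihood test with Benjamini-Hochberg adjustment over all genes, taken as passed at an adjusted p below 0.05 with a log2 fold change of 0.5 or more either way). Of the 18 reported members 16 passed the filter on low counts and were tested. Among all 11974 genes tested, 0.0251% were called higher in MSC-TPr and 0.401% lower. By unadjusted p, 5 members of 16 were under 0.05, against 15.0% of all genes. The groups did not overlap for the same 5 of 16, Tnfrsf12a and Tnfrsf21 higher and Fas, Tnfrsf1b and Tnfrsf26 lower in MSC-TPr, where without overlap 10.6% of the genes tested were higher and 12.0% lower. DESeq2 on the same libraries called Tnfrsf21 higher and Tnfrsf26 lower, where it called 1.46% of genes higher and 2.62% lower. The median log2 fold change of the 16 members was -0.02, beside 0.01 for all genes tested.

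**Figure D2:**
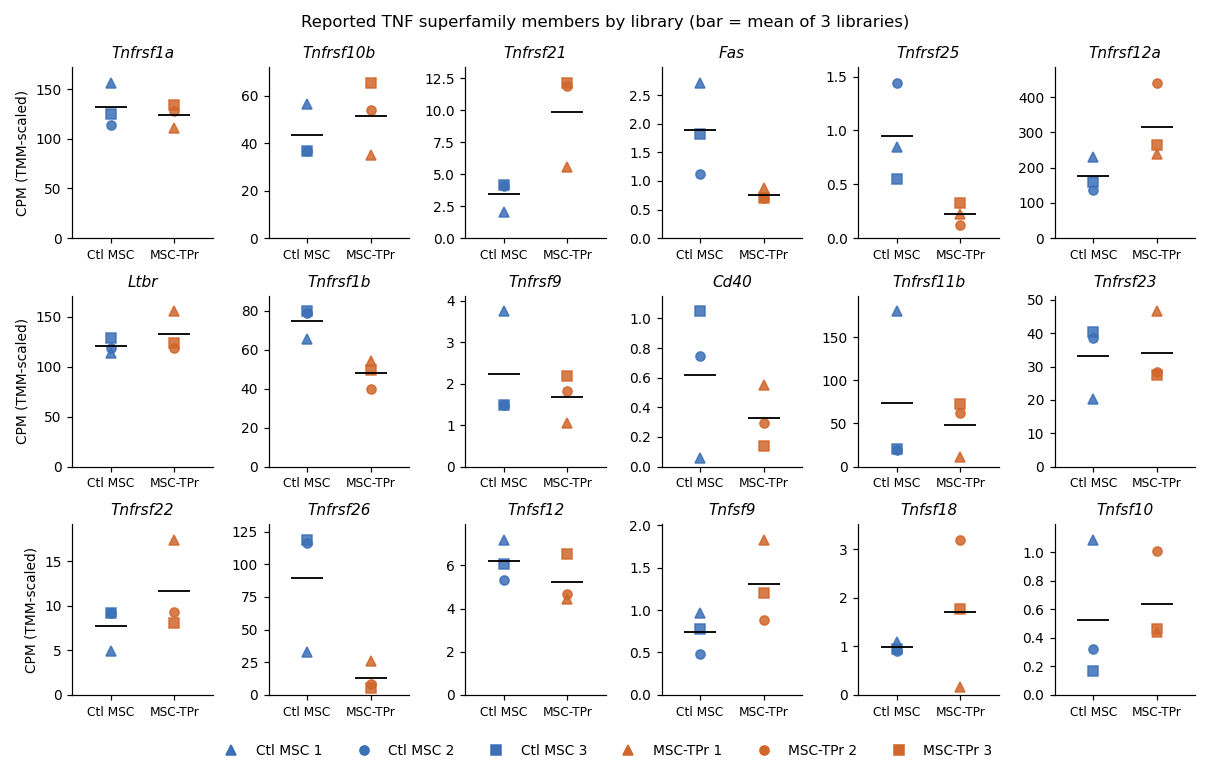
CPM of each reported member in the 3 Ctl MSC (blue) and 3 MSC-TPr (orange) libraries, on linear axes that start at 0. Triangles, circles and squares are libraries 1, 2 and 3, and the bar is the mean of 3 libraries. For Tnfrsf11b the triangles lie at the opposite ends of the 2 groups, at 179.8 and 10.6 CPM, whereas for Tnfrsf26, Tnfrsf1b, Tnfrsf21, Fas, Tnfrsf12a and Tnfrsf25 every point of one group lies above every point of the other. Tnfrsf25 met the limit for reporting only through the Ctl MSC libraries, so its lack of overlap is no support for a difference.

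Without libraries 1 the picture differed. Over the 4 libraries numbered 2 and 3, edgeR called 8 members, 5 higher (Tnfrsf10b, Tnfrsf11b, Tnfrsf12a, Tnfrsf21 and Tnfsf18) and 3 lower (Cd40, Tnfrsf1b and Tnfrsf26), in a comparison that called 20.6% of all genes higher and 19.4% lower. The groups then did not overlap for 13 of 16 tested members, beside 38.4% of all genes higher and 38.9% lower. With the cell division level as a covariate over all 6 libraries 4 members were called, Tnfrsf22 higher and Tnfrsf11b, Tnfrsf1b and Tnfrsf26 lower, beside 4.76% of all genes higher and 7.37% lower. Tnfrsf1b and Tnfrsf26 were the members called, in the same direction, in both.

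**Figure D3:**
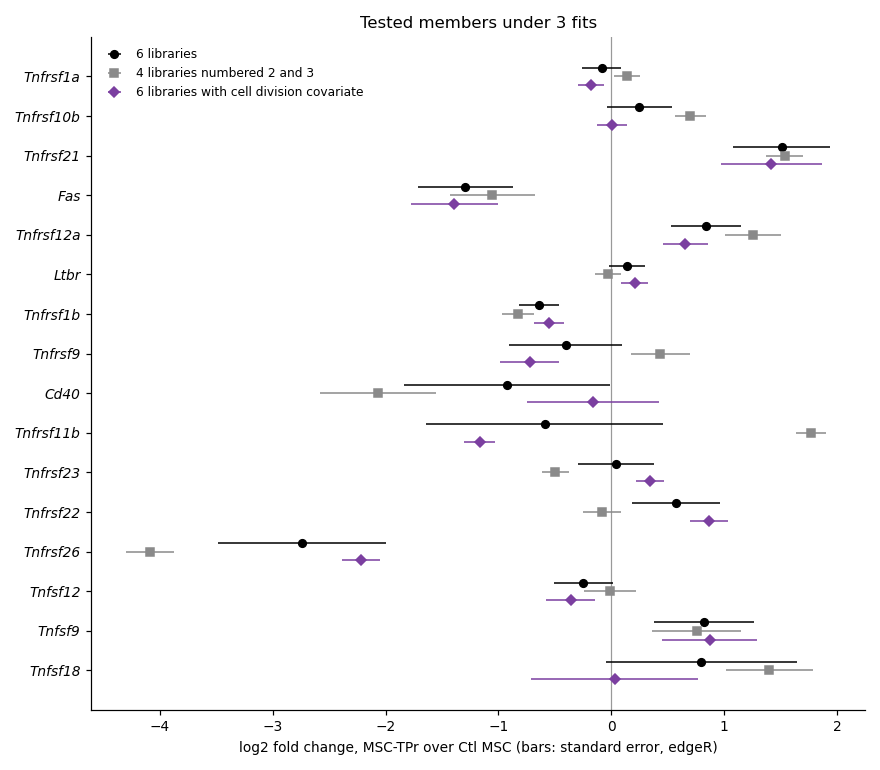
log2 fold change of MSC-TPr over Ctl MSC for the 16 tested members, with standard errors from edgeR, over 6 libraries (black), over the 4 libraries numbered 2 and 3 (grey) and over 6 libraries with the cell division covariate (purple). Tnfrsf26, Tnfrsf1b, Fas, Cd40 and Tnfsf12 lie below 0 in all 3. Tnfrsf21, Tnfrsf12a, Tnfsf9, Tnfrsf10b and Tnfsf18 lie above 0 in all 3. Cd40, Tnfsf12, Tnfrsf10b and Tnfsf18 lie within 1 standard error of 0 in at least 1 fit. Tnfrsf11b lies at 1.77 in grey and at -1.17 in purple.

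Among the death domain receptors, Tnfrsf1a (TNFR1), the main receptor for soluble TNF, was abundant and steady. It was at 156, 114 and 124 CPM in Ctl MSC 1, 2 and 3 and at 111, 128 and 134 CPM in MSC-TPr 1, 2 and 3. The groups overlapped, the highest library was 1.41-fold over the lowest, and on the log2 scale MSC-TPr differed by -0.08 with an SE of 0.17 (adjusted p = 0.860 in edgeR). Errors of log2 fold changes below are such SEs. Tnfrsf10b, the signalling TRAIL receptor of the mouse, was at 56.4, 36.9 and 36.8 CPM in the controls and at 35.0, 54.2 and 65.5 CPM in MSC-TPr. Its 3 high libraries were the 3 with high cell division genes. Its log2 fold change was 0.25 ± 0.29 over 6 libraries (edgeR adjusted p = 0.737), 0.70 ± 0.14 over the 4 libraries numbered 2 and 3 (adjusted p = 0.0088) and 0.01 ± 0.13 with the covariate (adjusted p = 0.972).

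Tnfrsf21 (DR6), a death receptor studied mainly in neurons and lymphocytes, was at 2.05, 4.11 and 4.19 CPM in the controls and at 5.53, 11.9 and 12.1 CPM in MSC-TPr. Every MSC-TPr library lay above every control. The difference on the log2 scale was 1.51 ± 0.43 (edgeR adjusted p = 0.199), a 2.85-fold difference, and 1.54 ± 0.17 over the 4 libraries (adjusted p = 0.0013). The size was 1.42 ± 0.45 with the covariate (adjusted p = 0.073) and 1.52 in DESeq2 (adjusted p = 0.025). The call thus depended on the fit. With 1 library left out the log2 fold change ran from 1.25 to 1.80 (edgeR adjusted p = 0.109 to 0.550).

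Fas, the receptor of Fas ligand, was low, with 45, 21 and 33 reads in Ctl MSC (2.72, 1.12 and 1.82 CPM) and 16, 12 and 15 reads in MSC-TPr (0.885, 0.709 and 0.695 CPM). All MSC-TPr libraries lay below all Ctl MSC libraries. On the log2 scale the difference was -1.30 ± 0.42 (edgeR adjusted p = 0.238), -1.05 ± 0.38 over the 4 libraries (adjusted p = 0.062) and -1.39 ± 0.38 with the covariate (adjusted p = 0.051), and none of these passed. Tnfrsf25 (DR3), the receptor of TL1A, had 14, 27 and 10 reads in Ctl MSC and 4, 2 and 7 in MSC-TPr. Its groups did not overlap, but it met the limit of 10 reads only through the Ctl MSC libraries. That choice favours groups without overlap, so its lack of overlap is no support for a difference. Tnfrsf25 did not pass edgeR's filter over 6 libraries. Over the 4 libraries its log2 fold change was -2.07 ± 0.69 (edgeR adjusted p = 0.051), and DESeq2 over 6 libraries gave -2.06 (adjusted p = 0.108).

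Tnfrsf12a (Fn14), a growth factor-inducible receptor, was the most variable of the abundant TRAF-binding receptors. It was at 231, 136 and 159 CPM in the controls and at 238, 440.2 and 265 CPM in MSC-TPr. The gap between the groups was that between Ctl MSC 1 at 231 and MSC-TPr 1 at 238 CPM, and with upper quartile scaling the groups overlapped. Its log2 fold change was 0.84 ± 0.31 (edgeR adjusted p = 0.282), a 1.79-fold difference, 1.26 ± 0.25 over the 4 libraries (adjusted p = 0.0093) and 0.66 ± 0.20 with the covariate (adjusted p = 0.068).

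Ltbr had the smallest spread of the members with 10 or more reads in all libraries, 1.37-fold between the highest and the lowest. It was at 114, 119 and 129 CPM in the controls and 156, 118 and 124 CPM in MSC-TPr. The groups overlapped, and the log2 fold change was 0.14 ± 0.16 (edgeR adjusted p = 0.733). Tnfrsf1b (TNFR2), the receptor that prefers membrane-bound TNF, was at 65.6, 79.0 and 79.8 CPM in the controls and at 54.3, 39.7 and 49.7 CPM in MSC-TPr. Every MSC-TPr library was below every Ctl MSC library, and the margin was smallest between the libraries numbered 1. The log2 fold change was -0.64 ± 0.18 (edgeR adjusted p = 0.191), -0.83 ± 0.14 over the 4 libraries (adjusted p = 0.0059) and -0.55 ± 0.13 with the covariate (adjusted p = 0.034). The 2 receptors of TNF thus had different folds, with Tnfrsf1a near 0 in all 3 fits and Tnfrsf1b between 1.47 and 1.77-fold lower, although the difference between these genes was not tested.

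Tnfrsf9 (4-1BB), a costimulatory receptor of T cells, was at 3.74, 1.49 and 1.49 CPM in the controls and 1.05, 1.83 and 2.18 CPM in MSC-TPr. The highest and the lowest library were both numbered 1, and no fit called it. Cd40, the costimulatory receptor of antigen-presenting cells, had 1, 14 and 19 reads in Ctl MSC and 10, 5 and 3 in MSC-TPr. Its lowest library was Ctl MSC 1, so that the log2 fold change was -0.93 ± 0.92 over 6 libraries (edgeR adjusted p = 0.687) but -2.06 ± 0.51 over the 4 (adjusted p = 0.021), where it was called lower on 3 to 19 reads a library.

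Among the decoys, Tnfrsf11b (osteoprotegerin) had the reading most dependent on library 1. It was at 179.8 CPM in Ctl MSC 1 and 19.5 and 20.3 in Ctl MSC 2 and 3, and at 10.6 CPM in MSC-TPr 1 and 62.6 and 72.6 in MSC-TPr 2 and 3. The highest and the lowest of the 6 libraries, 17.0-fold apart, were the libraries numbered 1. Over 6 libraries its log2 fold change was -0.59 ± 1.05 (edgeR adjusted p = 0.836), 1.77 ± 0.13 over the 4 (adjusted p = 0.00037) and -1.17 ± 0.14 with the covariate (adjusted p = 0.0023), so that it was called in opposite directions by the last 2 fits. Its ligand RANKL had at most 4 reads in 5 of 6 libraries.

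Tnfrsf23, the more abundant TRAIL decoy, was at 20.3, 38.4 and 40.5 CPM in the controls and 46.5, 28.5 and 27.4 CPM in MSC-TPr. Tnfrsf22 was at 4.95, 9.18 and 9.21 CPM in the controls and 17.4, 9.34 and 8.07 CPM in MSC-TPr. Both had their lowest library in Ctl MSC 1 and their highest in MSC-TPr 1, and both overlapped between the groups. The log2 fold changes over 6 libraries were 0.05 ± 0.34 and 0.57 ± 0.39 (edgeR adjusted p = 0.964 and 0.541). With the covariate Tnfrsf22 was called higher at 0.86 ± 0.17 (edgeR adjusted p = 0.019) and Tnfrsf23 stood at 0.34 ± 0.12 (edgeR adjusted p = 0.101). As above, how reads that fit both of these near copies were counted is uncertain.

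Tnfrsf26, an orphan receptor next to the TRAIL decoys, had the largest difference of any member. It was at 33.0, 116 and 119 CPM in the controls and at 26.1, 8.40 and 5.52 CPM in MSC-TPr, and the highest library was 21.5-fold over the lowest. All MSC-TPr libraries lay below all Ctl MSC libraries, but Ctl MSC 1 and MSC-TPr 1 were close, at 33.0 and 26.1 CPM. The log2 fold change was -2.74 ± 0.74 (edgeR adjusted p = 0.185), a 6.69-fold lower level, and -2.73 in DESeq2 (adjusted p = 0.0031). Over the 4 libraries it was -4.08 ± 0.21 (edgeR adjusted p = 0.00013), a 17.0-fold lower level, and with the covariate -2.22 ± 0.16 (edgeR adjusted p = 0.00037). With 1 library left out the log2 fold change ran from -3.68 to -2.36, where the sign is fixed because the groups do not overlap. With the replicate block it was -2.98 ± 1.03 (edgeR adjusted p = 0.751). Its neighbours Tnfrsf22 and Tnfrsf23, at values given above, did not share its order of libraries.

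Ligands were few and low. Tnfsf12 (TWEAK), the ligand of Tnfrsf12a, was at 7.18, 5.34 and 6.06 CPM in the controls and 4.43, 4.67 and 6.54 CPM in MSC-TPr. The groups overlapped, with a log2 fold change of -0.25 ± 0.26 (edgeR adjusted p = 0.710). Its exons are shared with the read-through gene Tnfsfm13 on the same strand, which holds 46.8% of its 50-base windows, so the count is uncertain. Tnfsf9 (4-1BBL), the ligand of Tnfrsf9, had 16, 9 and 14 reads in Ctl MSC and 33, 15 and 26 in MSC-TPr. The groups overlapped, and the log2 fold change was 0.82 ± 0.44 (edgeR adjusted p = 0.441). Gm11110, whose exons overlap those of Tnfsf9 on the opposite strand, had 4, 10 and 8 reads in Ctl MSC and 42, 11 and 23 in MSC-TPr, and its part in the Tnfsf9 count was not tested.

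Tnfsf18 (GITRL), a ligand that stimulates T cells through GITR, had 18, 17 and 17 reads in Ctl MSC and 3, 54 and 38 in MSC-TPr. MSC-TPr 1 was the lowest of the 6 and the other MSC-TPr libraries the highest. For Tnfsf18 the log2 fold change was 0.80 ± 0.85 over 6 libraries (edgeR adjusted p = 0.710), 1.40 ± 0.39 over the 4 (adjusted p = 0.029) and 0.03 ± 0.74 with the covariate (adjusted p = 0.983). Tnfsf10 (TRAIL), the ligand of Tnfrsf10b and of both decoys, had 18, 6 and 3 reads in Ctl MSC and 8, 17 and 10 in MSC-TPr. It did not pass edgeR's filter over 6 libraries, and DESeq2 gave a log2 fold change of 0.30 ± 0.89 (adjusted p = 0.921). The MSCs thus held reads for both sides of the TWEAK and Fn14 pair, the TRAIL and Tnfrsf10b pair and the 4-1BB pair, with the receptor above the ligand per kb in the first 2, and the ranges of Tnfrsf9 and Tnfsf9 overlapping.

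Members were split by cell division level about as often as genes in general. The libraries Ctl MSC 1, MSC-TPr 2 and MSC-TPr 3 had high cell division genes. Of the 16 tested members, 5 were higher in all 3 of these than in all others (Tnfrsf10b, Tnfrsf11b, Tnfrsf1a, Tnfrsf9 and Tnfsf18) and 2 were lower (Cd40 and Tnfrsf23), beside 23.0% of all genes higher and 21.7% lower. These 7 are 43.8% of the tested members, against 44.7% of all genes, and the other 9 overlapped by that split. Between MSC-TPr 1 and Ctl MSC 1, where the order of division levels is the opposite of that in libraries 2 and 3, the sign of the difference was the same as over the 4 libraries for 8 of 17 members. For 6 of these 8 (Fas, Tnfrsf12a, Tnfrsf1b, Tnfrsf21, Tnfrsf25 and Tnfrsf26) that sign is fixed, since their groups do not overlap over all 6 libraries, and the others were Tnfsf9 and Tnfsf12. The part of cell division in the other differences was not tested beyond the covariate.

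**Figure D4:**
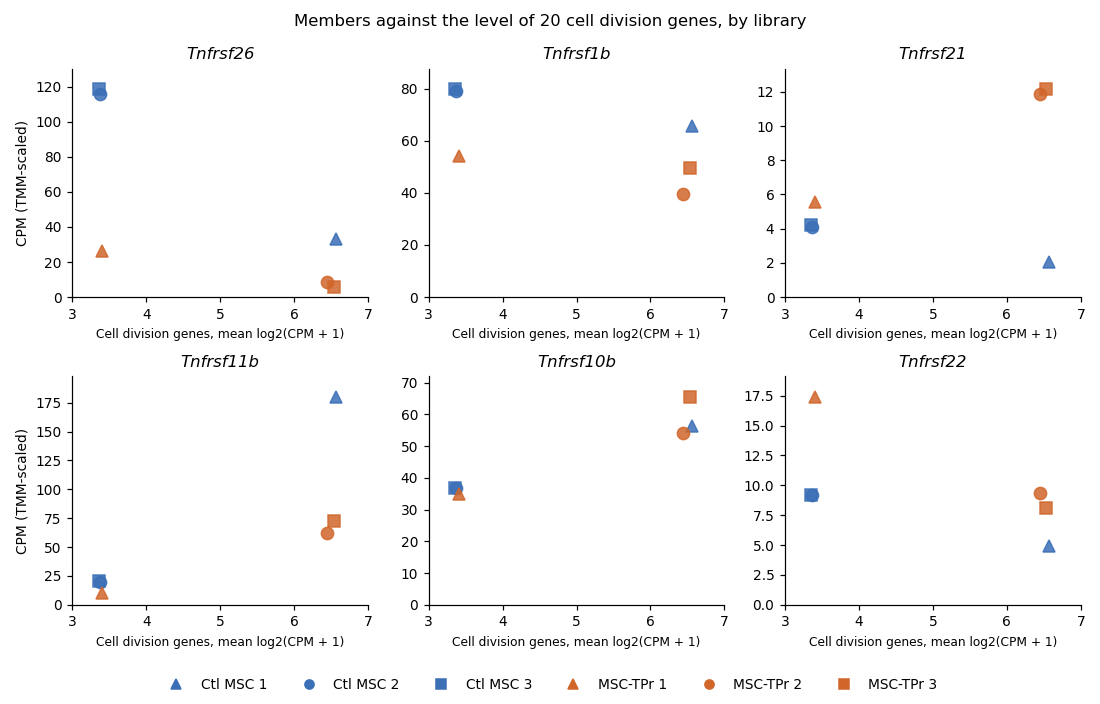
CPM of 6 members (vertical axes, linear from 0) against log2(CPM + 1) averaged over 20 cell division genes in the 6 libraries. Tnfrsf10b and Tnfrsf11b are higher in all 3 libraries near 6.5 than in all 3 near 3.4. Tnfrsf26 and Tnfrsf1b are lower, and Tnfrsf21 higher, in MSC-TPr (orange) than in Ctl MSC (blue) on both sides. For Tnfrsf26, Tnfrsf1b and Tnfrsf21 that order is fixed, since their groups do not overlap over all 6 libraries. Tnfrsf22 is highest in MSC-TPr 1 at 17.4 CPM and lowest in Ctl MSC 1 at 4.95 CPM.

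The promoters of the tested members without overlap between the groups, where an entry was given, are shown so that the starts of genes on either side can be read together. From RefSeq (GRCm38.p6), 11 of the 18 reported members had an entry of 250 bases before to 50 bases after the start, and Tnfrsf26, Tnfrsf22, Tnfrsf11b, Tnfrsf10b, Cd40, Tnfsf9 and Tnfsf12 were without one in that table. Capitals mark CG dinucleotides. Tnfrsf12a (chr17:23677400-23677699, minus strand) and Tnfrsf21 (chr17:43016305-43016604, plus strand) had higher values in MSC-TPr, and Tnfrsf1b (chr4:145246821-145247120, minus strand) and Fas (chr19:34290409-34290708, plus strand) lower ones.
Tnfrsf12a: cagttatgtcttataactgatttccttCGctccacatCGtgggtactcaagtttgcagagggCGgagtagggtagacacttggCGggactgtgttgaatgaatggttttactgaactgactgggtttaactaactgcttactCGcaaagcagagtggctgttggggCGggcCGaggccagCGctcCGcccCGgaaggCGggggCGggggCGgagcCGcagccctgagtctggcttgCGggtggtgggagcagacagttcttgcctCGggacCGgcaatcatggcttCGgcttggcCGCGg
Tnfrsf21: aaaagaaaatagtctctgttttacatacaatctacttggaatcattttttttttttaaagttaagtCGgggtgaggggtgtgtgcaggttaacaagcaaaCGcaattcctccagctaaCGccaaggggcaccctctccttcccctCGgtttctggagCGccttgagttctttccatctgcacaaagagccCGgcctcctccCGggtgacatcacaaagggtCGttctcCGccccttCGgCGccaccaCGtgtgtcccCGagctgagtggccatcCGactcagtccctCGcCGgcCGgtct
Tnfrsf1b: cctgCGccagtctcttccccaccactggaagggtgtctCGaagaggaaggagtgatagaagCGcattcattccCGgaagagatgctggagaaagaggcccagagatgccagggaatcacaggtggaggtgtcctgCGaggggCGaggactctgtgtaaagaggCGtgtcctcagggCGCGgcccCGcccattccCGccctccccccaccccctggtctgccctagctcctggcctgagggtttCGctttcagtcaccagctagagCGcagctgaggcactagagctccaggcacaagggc
Fas: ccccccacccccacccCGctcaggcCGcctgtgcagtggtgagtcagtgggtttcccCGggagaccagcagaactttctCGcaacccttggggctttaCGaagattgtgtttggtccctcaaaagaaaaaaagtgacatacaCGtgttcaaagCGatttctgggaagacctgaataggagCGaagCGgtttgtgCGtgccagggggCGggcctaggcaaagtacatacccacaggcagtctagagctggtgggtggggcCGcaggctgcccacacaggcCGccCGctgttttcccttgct
The promoters held 20, 17, 13 and 14 CG dinucleotides in this order, and the median over all 32851 promoters in the table was 7. A search on both strands for the NF-κB motif κB found none in these 4, and 4.51% of all promoters held a match. The AP-1 motif TGANTCA, sought on both strands, was found once among them, starting at base 40 of the Fas promoter, and 7.81% of all promoters held it. Of the 11 members with an entry, 1 held a κB match (Tnfrsf9) and 2 an AP-1 match (Tnfrsf9 and Fas). These matches describe letters in the window only.

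The genes that act downstream of these receptors were described with 7 lists of 83 genes, of which 69 were tested. Over 6 libraries edgeR called 1 of them, Birc3, lower in MSC-TPr. In 10 genes the groups did not overlap and MSC-TPr was higher, and in 7 it was lower. Together these are 24.6% of the tested genes, beside the 10.6% and 12.0% of all genes given above. The median log2 fold change of the 69 genes was 0.01, as it was over all genes. Over the 4 libraries numbered 2 and 3 there were 16 called higher and 7 lower, and with the covariate 3 higher and 8 lower. That is 33.3% of the tested pathway genes against 40.0% of all genes in the first and 15.9% against 12.1% in the second.

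Birc3 encodes cIAP2, a ubiquitin ligase that holds TNF receptor complexes in their survival mode and is itself a target of NF-κB, and so it stood in 2 lists. It was at 78.3, 54.3 and 56.7 CPM in the controls and at 2.43, 3.25 and 3.85 CPM in MSC-TPr. Every MSC-TPr library lay below every control, with a log2 fold change of -4.31 ± 0.27 (edgeR adjusted p = 0.0081) and of -3.95 and -4.47 over the 4 libraries and with the covariate (adjusted p = 9.5e-05 and 1.6e-05). The fold was as large when 1 library was left out (-4.46 to -4.12), but the call was lost without Ctl MSC 2, Ctl MSC 3, MSC-TPr 2 or MSC-TPr 3 (edgeR adjusted p = 0.0504, 0.0501, 0.112 and 0.0996) and with the replicate block (-4.31 ± 0.36, edgeR adjusted p = 0.243). Its partner Birc2 (cIAP1), the highest gene of the cIAP, LUBAC and A20 list at 31.4 CPM per kb, was at 159.5, 217 and 185 CPM in the controls and 134, 81.7 and 86.7 CPM in MSC-TPr. Its log2 fold change was -0.89 ± 0.24 (edgeR adjusted p = 0.183) over 6 libraries and -1.25 and -0.76 in the other fits (adjusted p = 0.0011 and 0.013). Both genes were named in the study from these same libraries, so their direction here is no independent evidence. In that list of 13 genes, 12 were tested and 1 was called over 6 libraries.

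Of the 10 TRAF adaptors all were tested and none was called over 6 libraries, with a median log2 fold change of 0.36. Tank, a TRAF-binding regulator of NF-κB, was at 84.5, 67.3 and 71.6 CPM in the controls and 116, 133 and 109.6 CPM in MSC-TPr, without overlap (log2 fold change 0.68 ± 0.16, edgeR adjusted p = 0.147). It was called in the other fits, at 0.81 over the 4 libraries and 0.63 with the covariate (edgeR adjusted p = 0.0054 and 0.022). Traf7, the highest of the list at 22.3 CPM per kb, differed by 0.42 ± 0.15 in the same direction (edgeR adjusted p = 0.264). It was called over the 4 libraries at 0.57 (edgeR adjusted p = 0.0082), but not with the covariate (0.35, edgeR adjusted p = 0.071). Among 12 death signalling genes, all tested and none called over 6 libraries, the median was 0.16, and Bid, the highest at 31.3 CPM per kb, had a log2 fold change of 0.32 ± 0.17 (edgeR adjusted p = 0.433).

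Of 17 NF-κB core genes 16 were tested and none was called over 6 libraries, with a median of -0.08, and Tab2, the highest at 46.5 CPM per kb, was at 0.01 ± 0.34. The 26 NF-κB target genes gave 17 tested, 1 called lower (Birc3) and a median of -0.21 over 6 libraries. Over the 4 libraries numbered 2 and 3 their median was 0.28, with 6 called higher and 2 lower. With the covariate it was -0.09, with 0 called higher and 5 lower, so the sign of the median depended on the fit. Cxcl10, an interferon and NF-κB target, was at 26.9, 5.02 and 6.06 CPM in the controls and 0.830, 1.66 and 2.78 CPM in MSC-TPr (log2 fold change -2.84 ± 0.80, edgeR adjusted p = 0.199). It was called in the other fits, at -1.29 over the 4 libraries and -3.27 with the covariate (edgeR adjusted p = 0.015 and 0.00063). Sod2, which encodes mitochondrial superoxide dismutase, went the other way, at 60.7, 50.5 and 54.8 and at 74.0, 85.7 and 73.7 CPM (0.49 ± 0.15, edgeR adjusted p = 0.216). It was called over the 4 libraries at 0.60 (edgeR adjusted p = 0.013), but not with the covariate (0.44, edgeR adjusted p = 0.052). Csf1, the highest target at 160.0 CPM per kb, differed by -0.15 ± 0.24. Of the 5 sheddase genes, which control release of TNF ligands and receptors from the cell surface, all were tested and none called over 6 libraries, and Timp3, an inhibitor of that shedding, was the highest at 149.7 CPM per kb with a log2 fold change of -0.44 ± 0.22 (edgeR adjusted p = 0.413). Timp3 was called lower over the 4 libraries at -0.68 (edgeR adjusted p = 0.0068), but not with the covariate (-0.28, edgeR adjusted p = 0.243).

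The 7 family members without a Tnfsf or Tnfrsf symbol had 3 tested and none called over 6 libraries. Cd70 and Cd40lg had no read. Eda (ectodysplasin), a ligand known from hair and tooth development, was at 4.35, 4.96 and 5.51 CPM in the controls and 10.5, 8.69 and 12.2 CPM in MSC-TPr. Every MSC-TPr library was higher, with a log2 fold change of 1.08 ± 0.23 (edgeR adjusted p = 0.126), and 1.01 and 1.13 over the 4 libraries and with the covariate (adjusted p = 0.014 and 0.018). Its receptor Eda2r, at 2.11 CPM per kb, was at 5.92, 15.7 and 15.6 CPM in the controls and 17.7, 13.2 and 6.44 CPM in MSC-TPr, and the groups overlapped.

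**Figure D5:**
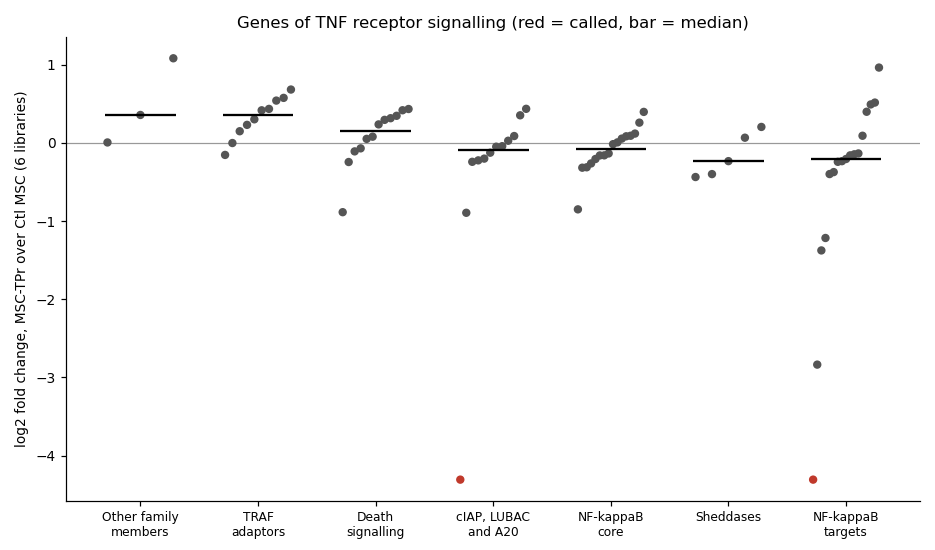
log2 fold change (MSC-TPr over Ctl MSC, edgeR over 6 libraries) of the tested genes in 7 lists of TNF receptor signalling. Each point is a gene, the bar is the median of a list, and red marks the gene called at an adjusted p under 0.05, Birc3, which stands in 2 lists at -4.31, while the medians lie between -0.23 and 0.36.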

How the data were processed

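RNA-seq of 3 Ctl MSC and 3 MSC-TPr libraries was analysed, grouped by the sample labels. The authors made polyA libraries with a stranded KAPA kit, aligned the reads to mm10 and took counts per gene by Htseq-count, and the deposited table holds these whole-number counts without normalization. The submitters' processing notes name CASAVA 1.8.2, Trimmomatic 0.35 and TopHat2 2.1.0. Rows of reads on no gene were left out, so that 79.2% to 86.2% of the reads in the table remained. Counts were tested in R 4.3.3 with edgeR 4.0.16 (TMM scaling, filterByExpr, quasi-likelihood test, group as the only term), and a call needed a Benjamini-Hochberg adjusted p below 0.05 and a log2 fold change of 0.5 or more in either direction. CPM values use TMM-scaled library sizes. Standard errors are the size of the log2 fold change divided by the root of F. Alternatives were DESeq2 1.42.0 (Wald test), RLE and upper quartile scaling, other filters on low counts, no fold change limit, leaving out each library, the 4 libraries numbered 2 and 3, the replicate number as a block, and a covariate, log2(CPM + 1) averaged over 20 cell division genes.

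Symbols were matched to the GENCODE M21 annotation of GRCm38, 21777 directly, 1264 by an older symbol and 379 not at all, which gave positions, exon lengths, overlaps and shared 50-base windows. Promoter sequences came from RefSeq (GRCm38.p6) and coding sequences from GENCODE. The members, the pathway and marker lists and the covariate were chosen with earlier results of these data known. Named genes were every reported member and, from the pathway lists, those called over 6 libraries, the 6 with the largest log2 fold change among those with an unadjusted p below 0.05 and groups that do not overlap, and the highest of each list by CPM per kb. No source states that the libraries came from separate cultures, so p-values measure only the spread between libraries, which may be technical. Ctl MSC 2 and 3 were the most alike pair, with a chi-square of 4.97 per gene against 52.3 to 200.3 for the other pairs within a group, and no pair agreed within sampling noise.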

Additional observations from a re-analysis of the deposited data

How the results depend on the processing

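With DESeq2, 2 members were called and 5 pathway genes, where 1.46% of all genes were higher and 2.62% lower. With libraries 2 and 3 only, these counts were 8 and 23 (33.3% of pathway genes tested against 40.0% of all genes), and 13 tested members had groups that did not overlap. Under the cell division covariate they were 4 and 11, where 12.1% of all genes were called. In those 4 libraries the log2 fold change was reversed against that over 6 libraries for Ltbr (-0.028), Tnfrsf11b (1.77), Tnfrsf1a (0.14), Tnfrsf22 (-0.079), Tnfrsf23 (-0.49) and Tnfrsf9 (0.44). Leaving out 1 library at a time gave 0 members called, 0 to 1 pathway genes called and 5 to 7 members without overlap. It gave log2 fold changes of -1.04 to 1.29 for Tnfrsf11b, -0.17 to 0.062 for Tnfrsf1a, -0.24 to 0.22 for Tnfrsf23 and -0.63 to 0.18 for Tnfrsf9. These changed sign without Ctl MSC 1, and Tnfrsf23 also without MSC-TPr 1. Birc3 lost its call without Ctl MSC 2 or 3 or MSC-TPr 2 or 3. The cause of these changes was not tested, nor was the part of the smaller number of libraries. Same-numbered libraries deviated from their group means in opposite directions (correlations -0.78, -0.64 and -0.62). The opposite division levels of the libraries numbered 1 can alone give such signs, since deviations within a group sum to 0. These correlations therefore cannot show whether the numbers pair the samples. With the replicate block, 0 members and 0 pathway genes were called and Tnfrsf11b was at 0.33. Over the members' log2 fold changes, 105 of the values under settings other than leaving out 1 library kept their direction and side of the threshold, 13 passed it, 7 reversed and 0 fell below it. Another scaling changed the sign of 0 members, with a median over all genes of 0.01 (TMM), 0.01 (RLE) and -0.03 (upper quartile). Depth limits the members under 20 reads in a library, for which small differences were not detectable.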
